A study of Mus musculus with 24 samples.

Results

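This report covers the genes of glucose uptake, glycolysis, lactate handling and glycogen metabolism in cultured mouse muscle cells and fibroblasts. The gene set was a list of 37 symbols, matched by exact gene name. Of these, 36 symbols were found, on 37 of the 56748 gene rows of the count table, because Aldoa has 2 rows. The listed Gyg1 was not matched: the table carries the gene as Gyg, which is therefore not counted as a member.

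RNA sequencing was done on 24 libraries in 8 groups of 3 replicates. Myotubes were grown from hindlimb myoblasts of mice less than 5 days old and treated for 48 h with aldosterone at 1 µM or with its vehicle, 0.001% DMSO, in medium with charcoal-stripped horse serum. Fresh medium was then left on these cultures for 15 h, and this conditioned medium was put on fibroblasts for 24 h. The groups were mdx myotubes with aldosterone, mdx myotubes with vehicle, C57 myotubes with aldosterone and C57 myotubes with vehicle. The other 4 groups were mdx fibroblasts in medium from aldosterone-treated mdx myotubes, mdx fibroblasts in medium from vehicle-treated mdx myotubes, C57 fibroblasts in medium from aldosterone-treated C57 myotubes and C57 fibroblasts in medium from vehicle-treated C57 myotubes. C57 stands for the strain C57BL/10, and mdx is C57BL/10-Dmdmdx, the Dmd mutant on that background, the standard mouse model of Duchenne muscular dystrophy. Every fibroblast culture received medium of its own line, so the line of the fibroblast and the line of the medium cannot be told apart, and carry-over of aldosterone was not measured. The labels number the replicates as biological but name no animals or culture days, so p-values measure the spread between these numbered samples.

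Libraries held 14133165 to 31144746 counted reads in myotubes and 16964960 to 42698139 in fibroblasts. Levels are given in CPM, read counts set to a common library size, with totals scaled by the trimmed mean of M-values (TMM). Dmd ran at 35.3 to 70.1 CPM in mdx myotubes and 352 to 485 CPM in C57 myotubes, and at 7.28 to 12.2 CPM in mdx fibroblasts and 23.1 to 37 CPM in C57 fibroblasts. A list of 10 myotube markers summed to 27735 to 45837 CPM in myotubes and to 16.6 to 171 CPM in fibroblasts. A list of 8 fibroblast markers summed to 1183 to 4885 CPM in mdx myotubes and 355 to 1141 CPM in C57 myotubes, against 15753 to 28120 CPM in fibroblasts. These are bulk samples, in which fewer cells of a type and less RNA per cell cannot be told apart.

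Glycolysis splits glucose into pyruvate with a small gain of ATP, and skeletal muscle relies on it for fast contraction, feeding it from blood glucose and from its own glycogen store. Many steps are catalysed by isoenzymes from separate genes, and during muscle differentiation adult muscle forms such as PFKM, PGAM2, ENO3, PYGM and the insulin-responsive transporter GLUT4 are switched on beside or in place of the widely expressed forms. Inherited loss of PYGM causes McArdle disease and loss of PFKM causes Tarui disease, both muscle glycogen storage disorders.

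Promoters of 2 isoenzyme pairs with opposite cell-type patterns are shown because they set a muscle form beside its widely expressed partner. Pgam2 encodes the muscle phosphoglycerate mutase (Pgam2, ENSMUSG00000020475, mm39 chr11:5751640-5753733, minus strand), and Pgam1 encodes the widely expressed form (ENSMUSG00000011752, chr19:41900362-41907099, plus strand). Pygm encodes muscle glycogen phosphorylase (ENSMUSG00000032648, chr19:6434429-6448489, plus strand), and Pygb encodes the brain form (ENSMUSG00000033059, chr2:150628655-150673678, plus strand). The sequences are the 250 bases before the start in RefSeq, on build GRCm38.p6, an older build than that of the counts, at chr11:5803797-5804046 on the minus strand for Pgam2, chr19:41911621-41911870 on the plus strand for Pgam1, chr19:6384158-6384407 on the plus strand for Pygm and chr2:150786546-150786795 on the plus strand for Pygb. Capitals mark the letters CAGCTG, an E-box of the kind bound by MyoD family factors, and ACGTG or its reverse complement CACGT, the core letters of the element bound by hypoxia-inducible factors.
Pgam2: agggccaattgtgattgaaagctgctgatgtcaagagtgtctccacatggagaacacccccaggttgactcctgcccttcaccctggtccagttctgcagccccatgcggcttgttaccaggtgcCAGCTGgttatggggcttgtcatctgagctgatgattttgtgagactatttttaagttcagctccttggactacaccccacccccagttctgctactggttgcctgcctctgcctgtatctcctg
Pgam1: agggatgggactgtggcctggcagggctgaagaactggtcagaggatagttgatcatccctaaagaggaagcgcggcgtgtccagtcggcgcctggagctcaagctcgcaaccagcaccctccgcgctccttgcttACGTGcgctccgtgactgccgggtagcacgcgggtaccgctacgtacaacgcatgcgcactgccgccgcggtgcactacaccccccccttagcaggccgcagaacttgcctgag
Pygm: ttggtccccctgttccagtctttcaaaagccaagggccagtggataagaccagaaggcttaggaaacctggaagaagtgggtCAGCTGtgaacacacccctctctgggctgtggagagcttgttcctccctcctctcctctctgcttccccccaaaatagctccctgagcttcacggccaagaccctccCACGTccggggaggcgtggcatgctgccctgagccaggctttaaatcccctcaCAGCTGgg
Pygb: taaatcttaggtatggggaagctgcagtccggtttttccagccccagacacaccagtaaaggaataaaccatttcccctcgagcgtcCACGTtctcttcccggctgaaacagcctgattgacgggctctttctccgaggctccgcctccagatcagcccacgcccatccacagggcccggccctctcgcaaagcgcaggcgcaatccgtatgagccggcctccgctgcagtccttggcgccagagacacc
CAGCTG lay 125 bases before the start of Pgam2 and 168 and 8 bases before that of Pygm, and was in neither partner. Among other members higher in C57 vehicle myotubes than in fibroblasts, Gpi1, Gys1 and Phka1 held it. Those without it were Eno3, Pfkm, Hk2, Aldoa, Pdk2, Ldha, Ldhb, Tpi1, Gapdh, Slc16a1 and Phkg1. Pdk1, Pfkfb1 and Pkm, which were not higher in myotubes, also held it in an entry. ACGTG lay 114 bases before the start of Pgam1, and on the other strand 163 bases before that of Pygb and 61 bases before that of Pygm. Over the 51 promoters of the 34 members with an entry, read on both strands, 15.7% held CAGCTG, against 13.0% of all 32851 promoters of the same length, and 35.3% held ACGTG, against 16.6%. Each CAGCTG also counts as a CANNTG, which 66.7% of the member promoters and 66.2% of all promoters held. A match is a description of these letters and not a measured binding site. Gyg1, Slc2a3 and Slc2a4 had no promoter entry.

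The largest changes were between cell types. Against fibroblasts, myotubes of both lines had far more RNA of the muscle forms of transporter, phosphofructokinase, mutase, enolase and glycogen phosphorylase, and less of their widely expressed partners. In mdx vehicle cultures 15 of the 37 members were higher and 15 lower in myotubes at an adjusted p below 0.05 (edgeR quasi-likelihood test, Benjamini-Hochberg adjustment), where 70.9% of all 17435 tested genes were called (36.2% higher and 34.7% lower). In C57 vehicle cultures 17 were higher and 15 lower, where 74.7% of all genes were called (37.5% higher and 37.2% lower), so the share of members called was not far from the background. The median log2 change of the members was -0.06 in mdx and 0.10 in C57, against -0.01 and 0.00 over all genes.

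Among glucose transporters the forms went in opposite directions. Slc2a4, which encodes GLUT4 (ENSMUSG00000018566, mm39 chr11:69833365-69839014, minus strand), had 49.0, 55.8 and 74.2 CPM in mdx vehicle myotubes, against 0.0529, 0.0433 and 0.228 CPM in mdx vehicle-medium fibroblasts. In C57 Slc2a4 had 90.8, 70.0 and 68.6 CPM in vehicle myotubes, against 0.283, 0.0989 and 0 CPM in vehicle-medium fibroblasts. The fibroblast values rest on 1, 2 and 6 reads in mdx and on 12, 3 and 0 reads in C57, so the log2 changes of 9.18 ± 0.46 and 9.04 ± 0.42 (SE, n = 3 per group) carry that uncertainty. Slc2a1, which encodes the widely expressed GLUT1, had 85.0, 67.3 and 52.0 CPM in mdx vehicle myotubes, against 172, 216 and 233 CPM in mdx vehicle-medium fibroblasts, and was lower, with a log2 change of -1.58 ± 0.15 (edgeR adjusted p = 2.13e-06). In C57 its log2 change was -2.04 ± 0.16 (edgeR adjusted p = 2.04e-07), with 50.2 to 54.9 CPM in myotubes and 220 to 234 CPM in fibroblasts. Slc2a3, which encodes the high-affinity GLUT3, was low everywhere and also lower in myotubes, with 0.712, 1.87 and 0.535 CPM in mdx vehicle myotubes, against 5.13, 4.61 and 3.35 CPM in mdx vehicle-medium fibroblasts. Its log2 changes were -2.11 in mdx and -2.10 in C57.

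The entry steps showed the same exchange of forms. Hk2 had 182, 161 and 192 CPM in mdx vehicle myotubes, against 35.6, 45.0 and 50.6 CPM in mdx vehicle-medium fibroblasts. In C57 Hk2 had 217, 178 and 186 CPM in vehicle myotubes, against 39.2, 42.2 and 40.2 CPM in vehicle-medium fibroblasts. This insulin-responsive hexokinase of muscle was thus 4.13-fold higher in mdx and 4.90-fold higher in C57 myotubes. Hk1, the constitutive form, was lower by smaller steps, with log2 changes of -0.34 and -0.39. Hk1 had 123, 125 and 108 CPM in mdx vehicle myotubes, against 146, 154 and 157 CPM in mdx vehicle-medium fibroblasts. In C57 Hk1 had 109, 110 and 121 CPM in vehicle myotubes, against 153, 151 and 151 CPM in vehicle-medium fibroblasts. The cell types did not overlap for either hexokinase. Pfkm, the muscle phosphofructokinase (ENSMUSG00000033065, mm39 chr15:97990470-98030332, plus strand), had 625, 781 and 966 CPM in mdx vehicle myotubes, against 53.1, 50.4 and 51.4 CPM in mdx vehicle-medium fibroblasts. In C57 Pfkm had 1088, 869 and 872 CPM in vehicle myotubes, against 60.7, 52.3 and 56.1 CPM in vehicle-medium fibroblasts. The groups were far apart in both lines, with log2 changes of 3.96 ± 0.16 (edgeR adjusted p = 5.59e-10) in mdx and 4.10 ± 0.16 (3.42e-10) in C57. Pfkl had 91.4, 69.7 and 59.1 CPM in mdx vehicle myotubes, against 203, 229 and 211 CPM in mdx vehicle-medium fibroblasts. In C57 Pfkl had 48.3, 58.8 and 58.2 CPM in vehicle myotubes, against 196, 202 and 188 CPM in vehicle-medium fibroblasts. This liver form was lower in myotubes, at -1.52 in mdx and -1.79 in C57, and so was the platelet form Pfkp, at -1.37 and -1.5. Pfkp had 25.5, 20.4 and 15.4 CPM in mdx vehicle myotubes, against 54.3, 56.8 and 50.9 CPM in mdx vehicle-medium fibroblasts. In C57 Pfkp had 17.4, 19.98 and 21.4 CPM in vehicle myotubes, against 60.6, 57.7 and 52.0 CPM in vehicle-medium fibroblasts. Aldoa, the muscle aldolase (ENSMUSG00000030695, mm39 chr7:126394406-126399923, minus strand), was 3.18-fold higher in mdx and 4.05-fold higher in C57 myotubes. Aldoa had 3172, 2920 and 3553 CPM in mdx vehicle myotubes, against 951, 1081 and 1045 CPM in mdx vehicle-medium fibroblasts. In C57 Aldoa had 3911, 3569 and 3486 CPM in vehicle myotubes, against 920, 932 and 929 CPM in vehicle-medium fibroblasts. The brain form Aldoc was lower, at -3.54 and -3.46, at 0.610, 0.150 and 0.382 CPM in mdx vehicle myotubes, against 3.97, 6.66 and 4.45 CPM in mdx vehicle-medium fibroblasts. Gpi1, the glucose phosphate isomerase, was 1.39-fold and 1.51-fold higher, and Tpi1, the triose phosphate isomerase, passed the test in C57 at 0.39 but had a log2 change of 0.14 in mdx (edgeR adjusted p = 0.135).

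All 3 member genes of the bifunctional enzyme that sets fructose 2,6-bisphosphate, the activator of phosphofructokinase, were lower in myotubes. Pfkfb2 is not a member and was placed in the list of other glycolytic genes. Pfkfb3 (ENSMUSG00000026773, mm39 chr2:11476244-11558888, minus strand) had 12.2, 10.6 and 8.02 CPM in mdx vehicle myotubes, against 23.9, 19.8 and 19.2 CPM in mdx vehicle-medium fibroblasts. In C57 Pfkfb3 had 9.29, 10.7 and 10.5 CPM in vehicle myotubes, against 25.3, 24.9 and 21.0 CPM in vehicle-medium fibroblasts. The libraries of the cell types did not overlap, and the log2 changes were -0.99 ± 0.15 in mdx and -1.19 ± 0.14 in C57. Pfkfb4 was lower, at -0.48 and -0.83 and Pfkfb1 at -1.75 and -1.72. The Pfkfb1 values rest on few reads, 18, 5 and 11 in mdx vehicle myotubes and 8, 22 and 4 in C57 vehicle myotubes.

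In the lower part of glycolysis the mutase and enolase forms changed most. Pgam2 had 254, 297 and 379 CPM in mdx vehicle myotubes, against 1.75, 1.93 and 1.75 CPM in mdx vehicle-medium fibroblasts. In C57 Pgam2 had 402, 398 and 381 CPM in vehicle myotubes, against 1.94, 1.35 and 1.34 CPM in vehicle-medium fibroblasts. These gaps are log2 changes of 7.42 ± 0.19 (edgeR adjusted p = 3.10e-11) and 8.01 ± 0.19 (1.64e-11), while the partner Pgam1 was lower, at -1.29 and -1.62. Pgam1 had 167, 120 and 92.7 CPM in mdx vehicle myotubes, against 288, 339 and 313 CPM in mdx vehicle-medium fibroblasts. In C57 Pgam1 had 76.7, 102 and 99.5 CPM in vehicle myotubes, against 312, 295 and 273 CPM in vehicle-medium fibroblasts. For both mutases the cell types were fully separate. Eno3, the muscle enolase (ENSMUSG00000060600, mm39 chr11:70548028-70553339, plus strand), had 1352, 1752 and 2054 CPM in mdx vehicle myotubes, against 8.58, 7.87 and 7.0 CPM in mdx vehicle-medium fibroblasts. In C57 Eno3 had 1955, 1836 and 1777 CPM in vehicle myotubes, against 10.2, 5.97 and 5.55 CPM in vehicle-medium fibroblasts. Its log2 changes were 7.80 ± 0.28 and 8.03 ± 0.28. Eno1 had 1184, 773 and 729 CPM in mdx vehicle myotubes, against 1407, 1630 and 1511 CPM in mdx vehicle-medium fibroblasts. In C57 Eno1 had 769, 859 and 861 CPM in vehicle myotubes, against 1278, 1336 and 1311 CPM in vehicle-medium fibroblasts. This ubiquitous form was lower, at -0.74 and -0.62. Eno2 had 4.17, 11.0 and 5.04 CPM in mdx vehicle myotubes, against 43.0, 35.1 and 31.8 CPM in mdx vehicle-medium fibroblasts. In C57 Eno2 had 3.41, 5.09 and 3.49 CPM in vehicle myotubes, against 40.1, 42.5 and 40.5 CPM in vehicle-medium fibroblasts. The neuronal form was thus lower, at -2.47 and -3.29, and no enolase overlapped between cell types. Pgk1, phosphoglycerate kinase, had log2 changes of 0.02 and 0.13, and Pkm, the muscle pyruvate kinase gene, -0.16 and -0.07, none of which passed the test. Counts per gene do not separate the M1 and M2 splice forms of Pkm.

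In lactate and pyruvate handling Ldhb, the heart form of lactate dehydrogenase, was 3.73-fold higher in mdx and 3.79-fold higher in C57 myotubes, and Ldha, the muscle form, 1.17-fold and 1.40-fold. Ldhb had 103, 129 and 139 CPM in mdx vehicle myotubes, against 30.6, 33.9 and 35.8 CPM in mdx vehicle-medium fibroblasts. In C57 Ldhb had 146, 118 and 124 CPM in vehicle myotubes, against 35.5, 32.6 and 37 CPM in vehicle-medium fibroblasts. Ldhb did not overlap between the cell types, and neither did the more abundant muscle form, although its call in mdx was kept in only 7 of 12 alternatives, with an adjusted p of up to 0.172. Ldha had 1088, 1022 and 1129 CPM in mdx vehicle myotubes, against 855, 1001 and 942 CPM in mdx vehicle-medium fibroblasts. In C57 Ldha had 1085, 1099 and 1079 CPM in vehicle myotubes, against 808, 813 and 772 CPM in vehicle-medium fibroblasts. The lactate transporters went in opposite directions: Slc16a1, which encodes MCT1, was 1.73-fold and 1.82-fold higher, and Slc16a3, which encodes the exporter MCT4, was lower, at -1.94 ± 0.09 (edgeR adjusted p = 2.24e-09) in mdx and -1.68 ± 0.09 (4.45e-09) in C57. Slc16a3 had 25.8, 20.8 and 22.3 CPM in mdx vehicle myotubes, against 85.6, 97.0 and 87.2 CPM in mdx vehicle-medium fibroblasts. In C57 Slc16a3 had 25.4, 27.0 and 25.8 CPM in vehicle myotubes, against 89.5, 90.3 and 78.2 CPM in vehicle-medium fibroblasts. Neither transporter overlapped between cell types. Slc16a1 had 73.8, 65.8 and 65.8 CPM in mdx vehicle myotubes, against 37.5, 40.9 and 41.7 CPM in mdx vehicle-medium fibroblasts. In C57 Slc16a1 had 77.3, 63.6 and 65.9 CPM in vehicle myotubes, against 38.3, 41.8 and 36.9 CPM in vehicle-medium fibroblasts. Pdk2, a kinase that restrains pyruvate dehydrogenase, was 5.08-fold and 5.78-fold higher. Pdk2 had 111, 126 and 152 CPM in mdx vehicle myotubes, against 26.5, 23.8 and 27.5 CPM in mdx vehicle-medium fibroblasts. In C57 Pdk2 had 179, 139 and 135 CPM in vehicle myotubes, against 26.8, 26.2 and 27.5 CPM in vehicle-medium fibroblasts. Pdk1, the hypoxia-responsive kinase of that family, was lower in mdx at -0.33 (edgeR adjusted p = 0.00595) and at 0.00 in C57 (edgeR adjusted p = 0.984). Pdk1 had 61.9, 47.7 and 54.6 CPM in mdx vehicle myotubes, against 67.8, 76.2 and 65.7 CPM in mdx vehicle-medium fibroblasts. In C57 Pdk1 had 57.1, 56.0 and 56.3 CPM in vehicle myotubes, against 58.4, 60.9 and 54.3 CPM in vehicle-medium fibroblasts.

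In glycogen metabolism Pygm had 735, 847 and 1150 CPM in mdx vehicle myotubes, against 2.59, 1.58 and 2.21 CPM in mdx vehicle-medium fibroblasts. In C57 Pygm had 1204, 975 and 973 CPM in vehicle myotubes, against 5.31, 2.57 and 1.54 CPM in vehicle-medium fibroblasts. Its log2 changes were 8.81 ± 0.47 and 8.39 ± 0.45, and the partner Pygb was lower, at -1.53 ± 0.13 and -1.98 ± 0.13. Pygb had 40.8, 42.6 and 28.5 CPM in mdx vehicle myotubes, against 108, 109 and 111 CPM in mdx vehicle-medium fibroblasts. In C57 Pygb had 24.6, 30.4 and 26.8 CPM in vehicle myotubes, against 99.2, 122 and 110 CPM in vehicle-medium fibroblasts. No library of either phosphorylase overlapped between cell types. Among the C57 fibroblasts the highest Pygm value was in the library that also had the highest summed myotube markers of its group, 132 CPM, and the part of myotube RNA in it was not tested. Phka1, a muscle subunit of phosphorylase kinase, was 2.11-fold and 2.37-fold higher, and Gys1, the muscle glycogen synthase, 1.29-fold and 1.5-fold higher. Gbe1, the branching enzyme, did not pass the test in either line, with log2 changes of -0.06 and -0.17. Pgm1, the phosphoglucomutase that links glycogen to glycolysis, stood at -0.22 in mdx (edgeR adjusted p = 0.0626) and was called lower in C57 at -0.27 (0.0219), a call kept in 9 of 12 alternatives. Phkg1, the muscle catalytic subunit of phosphorylase kinase, stood at 0.00 in mdx (edgeR adjusted p = 0.994) and was called higher in C57 at 0.78 (0.0383), a call kept in 7 of 12 alternatives. The second Aldoa row (ENSMUSG00000114515) was not called in either line.

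Shares within a family, computed per kilobase of the deposited gene length, give the size of the exchange. They depend on that length, which need not be the length of the transcripts expressed. Pgam2 made up 84.7% ± 6.2 of the mutase signal in mdx vehicle myotubes, against 1.34% ± 0.06 in mdx vehicle-medium fibroblasts (SD, n = 3 each), and in C57 90.9% ± 1.4 against 1.22% ± 0.20. Eno3 made up 84.9% ± 6.2 of enolase in mdx vehicle myotubes and 87.3% ± 1.2 in C57 vehicle myotubes, and 1.54% and 1.63% in the fibroblasts of the same lines. Pygm held 97.2% and 98.3% of the 2 phosphorylase forms in the myotubes, against 2.83% and 4.17% in the fibroblasts. Pfkm held 94.7% and 96.6% of phosphofructokinase in the myotubes, against 30.0% and 33.5% in the fibroblasts. On raw counts the Pfkm share of the vehicle-medium fibroblasts was only 16.2% in mdx and 18.3% in C57. The raw-count Eno3 share of the vehicle myotubes was 65.3% in mdx and 69.0% in C57. For GLUT4 the share was 46.9% ± 11.2 in mdx and 58.6% ± 5.0 in C57 myotubes, against 0.0496% and 0.0565% in fibroblasts, so the GLUT1 and GLUT3 genes together still held a large share in myotubes. For Ldha, Slc16a3 and Aldoc the larger share lay in fibroblasts. Each of these groups of 3 libraries was compared by an exact permutation test, whose smallest two-sided p is 0.1.

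**Figure D1:**
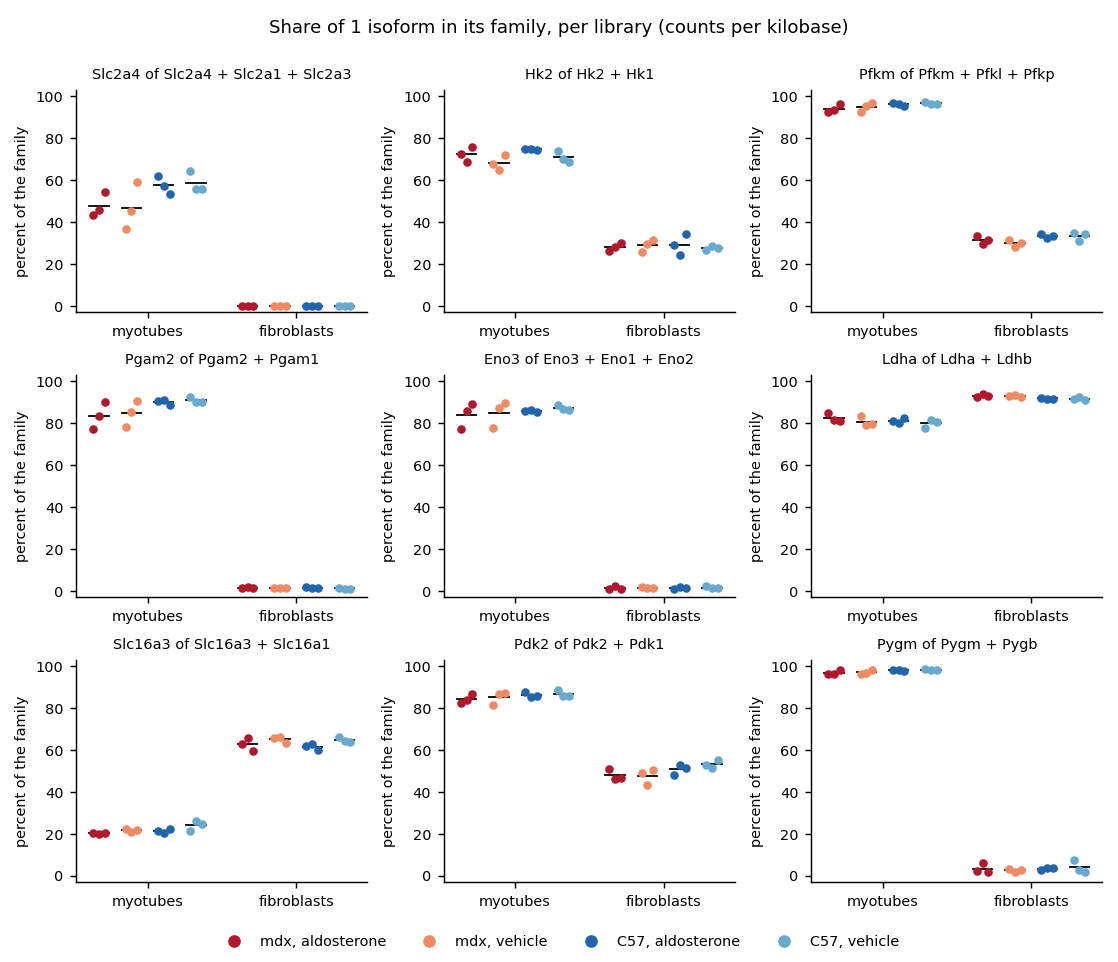
Percent of its isoenzyme family, per kilobase, taken by the named gene in each of the 24 libraries, with myotube groups left and fibroblast groups right; points are libraries and black lines group means. Pgam2 and Eno3 sit at 77.3% or above in every myotube library, while the Slc16a3 and Ldha shares are higher in fibroblasts.

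**Figure D2:**
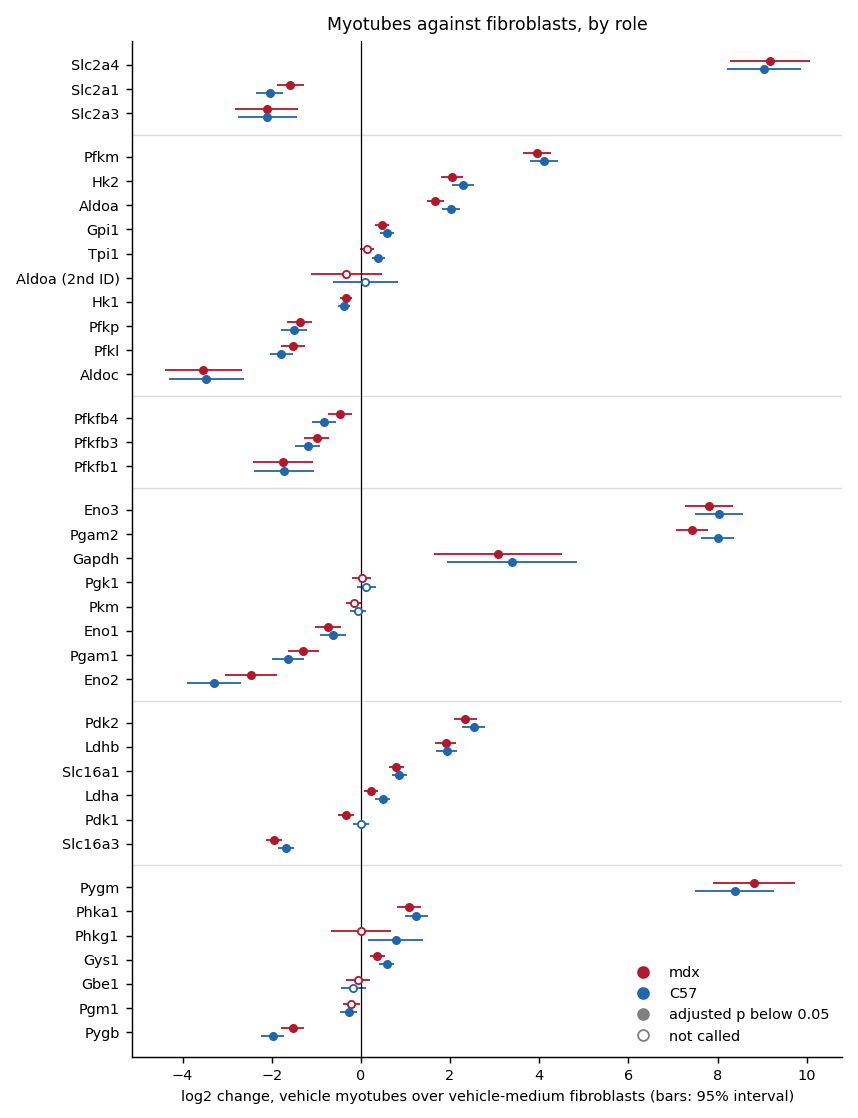
Log2 change in myotubes over fibroblasts, vehicle groups, for each member ordered by role, mdx in red and C57 in blue; bars are 95% intervals and filled points passed an adjusted p below 0.05. Slc2a4, Pygm, Eno3 and Pgam2 stand at 7.42 to 9.18, and Aldoc, Eno2 and Slc2a3 lie at -2.10 or below.

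By level per kilobase, Aldoa ranked first of the 37 members in all 4 myotube groups and second in all 4 fibroblast groups, where Pkm ranked first. This order too depends on the deposited gene lengths. In C57 vehicle myotubes the order was Aldoa at 1256 CPM per kb, Eno3 at 1067, Pgam2 at 468 and Pkm at 397. The member genes together took 1.39% ± 0.08 of all counts in mdx vehicle myotubes, against 1.01% ± 0.06 in mdx vehicle-medium fibroblasts, and 1.46% ± 0.03 in C57 vehicle myotubes, against 0.917% ± 0.026 in C57 vehicle-medium fibroblasts (SD, n = 3 each). The libraries of the cell types did not overlap in either line, and the exact permutation p was 0.1, the smallest that 3 against 3 allows. Markers of proliferation differed between the cell types as well, with sums of 9.80 to 39.0 CPM in the vehicle myotubes and 245 to 414 CPM in the vehicle-medium fibroblasts, and their part in the contrast was not tested.

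The cell-type contrast itself was compared between lines. No member passed the test of the difference between mdx and C57 (edgeR, 0.00574% of all genes called; DESeq2 and limma-voom also called 0 members), and 6 members had an unadjusted p below 0.05, as did 11.9% of all genes. The smallest p-values were those of Aldoa, whose contrast was smaller in mdx, with a difference of -0.35 (edgeR adjusted p = 0.339), Pdk1 at -0.33 (0.341) and Pygb at 0.45 (0.365).

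Aldosterone on myotubes gave small changes, which passed the test when each aldosterone culture was set against the vehicle culture of the same number. Without that pairing 0 of 37 members passed the test in mdx (0% of all genes called), in C57 (0.0127%), in the mean of both lines (0.216%) or in the difference between lines (0%), with 1, 2, 4 and 0 members at an unadjusted edgeR p below 0.05, where 3.44%, 4.97%, 7.4% and 0.964% of all genes had such a p. DESeq2 and limma-voom also called 0 members in each of these. Same-numbered cultures deviated together over all genes, with correlations of 0.482 to 0.673 in mdx and 0.359 to 0.704 in C57, and the number was therefore kept as a block. The highest correlation between cultures of different numbers was -0.161 in mdx. In C57 it was 0.35, close to the lowest same-number value, so the pairing is less clear there. Deviations from a group mean sum to 0, which pulls correlations between different numbers down when same-number ones are positive. A negative value is therefore no separate support for the pairing. With the block, 4 members rose and 5 fell in the mean of both lines, where 8.96% of all 15763 tested genes were called (4.4% higher and 4.56% lower). The members' median log2 change was -0.03, against 0.01 over all genes.

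Pfkfb3 and Hk2, which act at the entry steps, rose. Pfkfb3 had 13.1, 16.4 and 13.0 CPM in aldosterone-treated mdx myotubes, against 12.2, 10.6 and 8.02 CPM in vehicle-treated mdx myotubes. In C57 Pfkfb3 had 11.3, 11.2 and 13.6 CPM with aldosterone, against 9.29, 10.7 and 10.5 CPM with vehicle. The treatments did not overlap in either line and 6 of 6 numbered cultures were higher, by a mean log2 change of 0.34 ± 0.09 (SE; edgeR with block, adjusted p = 0.0123). The Pfkfb3 call was kept in 7 of 11 alternatives. It was lost in DESeq2 with the block, and without the C57 cultures numbered 3 or the mdx cultures numbered 2 or 3. Hk2 (ENSMUSG00000000628, mm39 chr6:82702006-82751435, minus strand) had 205, 162 and 234 CPM in aldosterone-treated mdx myotubes, against 182, 161 and 192 CPM with vehicle, and in C57 241, 196 and 221 CPM with aldosterone, against 217, 178 and 186 CPM with vehicle. The treatments overlapped, but 6 of 6 cultures were higher within their number, by 0.17 ± 0.04 (edgeR with block, adjusted p = 0.00937). The Hk2 share of hexokinase was 72.2% ± 3.6 with aldosterone against 68.2% ± 3.5 with vehicle in mdx, and 74.7% ± 0.4 with aldosterone against 70.9% ± 2.7 with vehicle in C57 (SD, n = 3 each), with exact permutation p-values of 0.2 and 0.1.

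Lactate genes moved in both directions. Slc16a1 (ENSMUSG00000032902, mm39 chr3:104545984-104565778, plus strand) had 79.3, 67.5 and 75.2 CPM in aldosterone-treated mdx myotubes, against 73.8, 65.8 and 65.8 CPM with vehicle, and in C57 84.1, 77.0 and 81.8 CPM with aldosterone, against 77.3, 63.6 and 65.9 CPM with vehicle. It was higher in 6 of 6 cultures, by 0.17 ± 0.04 (edgeR with block, adjusted p = 0.0118). Ldhb (ENSMUSG00000030246, mm39 chr6:142435975-142453683, minus strand) had 81.1, 104 and 116 CPM in aldosterone-treated mdx myotubes, against 103, 129 and 139 CPM with vehicle, and in C57 110, 121 and 92.7 CPM with aldosterone, against 146, 118 and 124 CPM with vehicle. It was lower in 5 of 6 cultures, at -0.28 ± 0.05 (edgeR with block, adjusted p = 0.00271). Ldha had 960 to 1038 CPM in aldosterone-treated mdx myotubes and 1022 to 1129 CPM with vehicle, and 922 to 1014 CPM in aldosterone-treated C57 myotubes and 1079 to 1099 CPM with vehicle. All 6 cultures were lower, at -0.14 ± 0.04 (edgeR with block, adjusted p = 0.0343), a call kept in 6 of 11 alternatives.

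The muscle enolase gene Eno3 and 2 of the 7 glycogen genes, Pygm and Phka1, fell, and the branching enzyme gene Gbe1 rose. Eno3 had 1221, 1437 and 1898 CPM in aldosterone-treated mdx myotubes, against 1352, 1752 and 2054 CPM with vehicle, and in C57 1649, 1747 and 1473 CPM with aldosterone, against 1955, 1836 and 1777 CPM with vehicle. Pygm had 637, 668 and 1059 CPM in aldosterone-treated mdx myotubes, against 735, 847 and 1150 CPM with vehicle, and in C57 1066, 946 and 844 CPM with aldosterone, against 1204, 975 and 973 CPM with vehicle. Both were lower in 6 of 6 cultures, Eno3 at -0.19 ± 0.04 (edgeR with block, adjusted p = 0.00772) and Pygm at -0.18 ± 0.04 (0.00782), although only Eno3 in C57 had treatments that did not overlap. Phka1 was lower in 6 of 6 cultures, at -0.15 ± 0.04 (edgeR with block, adjusted p = 0.0422), but was called in only 4 of 11 alternatives, not in DESeq2, and its adjusted p reached 0.20. Gbe1 (ENSMUSG00000022707, mm39 chr16:70110837-70366604, plus strand) had 63.0, 42.4 and 59.4 CPM in aldosterone-treated mdx myotubes, against 60.4, 43.7 and 50.3 CPM with vehicle, and in C57 76.6, 64.3 and 56.8 CPM with aldosterone, against 62.3, 47.0 and 47.1 CPM with vehicle. It was higher in 5 of 6 cultures, by 0.22 ± 0.05 (edgeR with block, adjusted p = 0.00454).

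**Figure D3:**
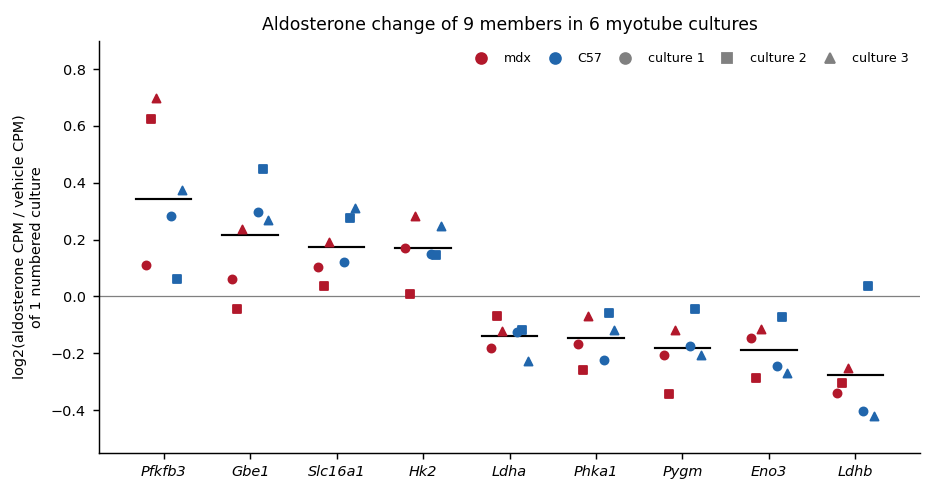
Log2 ratio of aldosterone over vehicle in each of the 6 numbered myotube cultures for the 9 members called with the replicate block, mdx and C57 by colour; lines are the block-fit estimates. Pfkfb3, Hk2, Slc16a1, Eno3, Pygm, Ldha and Phka1 keep their direction in 6 of 6 cultures, and Gbe1 and Ldhb in 5 of 6.

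Within lines fewer members passed. In mdx Ldhb fell by 0.30 ± 0.08 (edgeR with block, adjusted p = 0.0464) and Pygm fell by 0.22 ± 0.06 (0.0483), where 2.33% of all genes were called. In mdx the Ldhb call was kept in 2 of 8 alternatives and the Pygm call in 4 of 8, and neither was kept when any 1 mdx culture was left out. In C57 Gbe1 rose by 0.35 ± 0.07 (edgeR with block, adjusted p = 0.00203) and Slc16a1 by 0.24 ± 0.06 (0.0195), where 4.98% of all genes were called, and the Slc16a1 call was kept in 5 of 8 alternatives. No member passed the test of the difference between lines with the block (edgeR, 0.0444% of all genes called; 2 members at an unadjusted p below 0.05), where Gbe1 had the smallest p, with a mdx minus C57 difference in change of -0.26 ± 0.10 (adjusted p = 0.827). Groups that did not overlap were found for Pfkfb3 alone in mdx, higher, where 3.04% of all genes were higher and 3.51% lower without overlap. In C57 Pgk1, Pdk1 and Pfkfb3 were higher and Ldha, Eno3 and the second Aldoa row lower without overlap, against 6.82% and 7.54% of all genes.

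Marker levels of other cells moved between these same cultures. A list of 10 macrophage markers summed to 3.99, 206 and 12.8 CPM in aldosterone-treated mdx myotubes, against 3.8, 43.2 and 16.3 CPM with vehicle, and in C57 to 12.1, 395 and 224 CPM with aldosterone, against 13.3, 502 and 293 CPM with vehicle. These macrophage sums were lower with aldosterone in each C57 culture and in the mdx culture numbered 3, and higher in the mdx cultures numbered 1 and 2. In the mean of both lines with the block, 6 of the 10 macrophage markers were higher, 3 of 10 myotube markers were lower and 2 of 8 fibroblast markers were lower. In that fit 4.4% of all genes were called higher and 4.56% lower. The macrophage count does not describe all cultures: the largest rise of the sum was in the mdx cultures numbered 2, at 206 against 43.2 CPM. Without the mdx cultures numbered 2, 4 members were called (Hk2, Gbe1 and Slc16a1 higher and Ldhb lower), where 5.12% of all genes were called, and Pfkfb3 had an adjusted p of 0.0860, within a range of 0.00155 to 0.0860 over the alternatives. Without the mdx cultures numbered 3, Ldhb, Pygm and Eno3 were called, and without the C57 cultures numbered 3, Gbe1, Ldhb, Eno3 and Pygm. Ldhb was called in each of these 3 fits, and the part of other cells in the changes was not tested.

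Between the lines of myotubes no call was made in these genes. No member passed the test of mdx against C57 with aldosterone (edgeR, 0.311% of all genes called) or with vehicle (0.362%), with 7 and 2 members at an unadjusted p below 0.05, where 15.7% and 14.4% of all genes had such a p. DESeq2 and limma-voom called 0 members in both. With aldosterone the smallest p-values were those of Pfkl at 0.48 (edgeR adjusted p = 0.222), Gpi1 at -0.23 (0.280) and Aldoa at -0.32 (0.285). With vehicle they were those of Pygb at 0.44 (0.254), Pfkl at 0.41 (0.309) and Slc2a1 at 0.35 (0.347). Pfkl had 90.6, 83.5 and 63.1 CPM in aldosterone-treated mdx myotubes, against 54.7, 51.4 and 62.2 CPM in aldosterone-treated C57 myotubes, and with vehicle 91.4, 69.7 and 59.1 CPM in mdx, against 48.3, 58.8 and 58.2 CPM in C57. The lines did not overlap for Pfkl in either treatment, but the closest libraries were 63.1 and 62.2 CPM, and 59.1 and 58.8 CPM. With aldosterone Gpi1 had 911, 909 and 1042 CPM in mdx, against 1199, 1096 and 1018 CPM in C57, and Aldoa had 2906, 2579 and 3522 CPM in mdx, against 3745, 4054 and 3280 CPM in C57, and both overlapped. With vehicle Pygb had 40.8, 42.6 and 28.5 CPM in mdx, against 24.6, 30.4 and 26.8 CPM in C57, and Slc2a1 had 85.0, 67.3 and 52.0 CPM in mdx, against 50.2, 54.9 and 54.7 CPM in C57, and both overlapped. With aldosterone Slc2a1, Pfkl, Pfkfb4 and Pfkfb1 were higher in mdx without overlap, where 11.5% of all genes were, and 0 members were lower, where 6.84% were. With vehicle Pfkl was higher without overlap, where 11.2% were, and Pgam2 was lower, where 8.31% were. The members' median log2 change was -0.12 with aldosterone and -0.08 with vehicle, against -0.02 and 0.00 over all genes. The summed fibroblast markers, given above, were higher in mdx than in C57 myotubes. In mdx they came to 1183, 4885 and 2316 CPM with aldosterone and to 1385, 4503 and 1620 CPM with vehicle. The mdx libraries numbered 1 had the highest Pfkl and the lowest fibroblast sum in both treatments. Summed proliferation markers ran in the order of Pfkl within mdx in both treatments, and overlapped between the lines. Pfkl did not pass the test in either treatment, and the order of so few libraries cannot show what its values depend on. The part of either marker list was not tested.

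In fibroblasts no member was called in the unpaired edgeR fit between the medium of aldosterone-treated and that of vehicle-treated myotubes. Slc2a4 was too low to be tested, so 36 members entered. No member passed the test in mdx (edgeR, 0% of all genes called), in C57 (0%), in the mean of both lines (0.012%) or in the difference between lines (0%), with 1, 5, 4 and 1 members at an unadjusted p below 0.05, where 4.91%, 12%, 15.2% and 2.35% of all genes had such a p. DESeq2 called Pfkfb3 in the mean of both lines, where it called 1.64% of all genes, but 0 members in the other comparisons, and limma-voom called 0 in all 4. With the replicate block, DESeq2 called 3 members in the mean of both lines, where it called 406 of 16671 genes. The edgeR block fits that left out a culture called 0 to 6 members. The 6 came without the mdx cultures numbered 2, where 1786 of 16788 genes were called. Pfkfb3 had 16.2, 18.8 and 15.6 CPM in mdx fibroblasts with aldosterone medium, against 23.9, 19.8 and 19.2 CPM with vehicle medium, and in C57 18.3, 20.9 and 16.9 CPM with aldosterone medium, against 25.3, 24.9 and 21.0 CPM with vehicle medium. The media did not overlap in either line, and the mean log2 change was -0.34 ± 0.08 (edgeR adjusted p = 0.173). Eno2 had 29.6, 38.4 and 26.4 CPM in mdx fibroblasts with aldosterone medium, against 43.0, 35.1 and 31.8 CPM with vehicle medium, and in C57 31.1, 33.5 and 30.4 CPM with aldosterone medium, against 40.1, 42.5 and 40.5 CPM with vehicle medium. The media overlapped in mdx and not in C57, and the mean log2 change was -0.30 ± 0.09 (edgeR adjusted p = 0.211). Pygb was next, at 0.13 ± 0.05 (edgeR adjusted p = 0.265), with 118, 114 and 117 CPM in mdx fibroblasts with aldosterone medium, against 108, 109 and 111 CPM with vehicle medium, and in C57 121, 135 and 121 CPM with aldosterone medium, against 99.2, 122 and 110 CPM with vehicle medium. The point estimate of Pfkfb3 thus lies below 0 in fibroblasts and above 0 in myotubes; the cell types were not tested against each other for this change.

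Within C57 fibroblasts the smallest p-values were those of Gbe1 at -0.46 ± 0.13 (edgeR adjusted p = 0.327), Pfkfb3 at -0.35 ± 0.11 (0.339) and Eno2 at -0.38 ± 0.13 (0.351). Gbe1 had 48.4, 41.6 and 41.3 CPM with aldosterone medium, against 69.1, 54.6 and 56.5 CPM with vehicle medium. Of the members, 7 were lower without overlap in C57 (Slc2a1, Pfkl, Hk1, Gbe1, Eno2, Pfkfb3 and Pfkfb4), where 10.6% of all genes were, and Eno1 was higher, where 10.9% were. In mdx the smallest p-values were those of Pfkfb3 at -0.32 (edgeR adjusted p = 0.916), Eno2 at -0.23 and Slc2a3 at -0.32, which had 2.78, 4.67 and 2.99 CPM in mdx fibroblasts with aldosterone medium, against 5.13, 4.61 and 3.35 CPM with vehicle medium. In mdx Pfkfb3 was lower without overlap, where 3.66% of all genes were, and Pygb higher, where 5.22% were. Gbe1 also had the smallest p for the difference between lines, with a log2 difference of 0.42 ± 0.19, mdx minus C57 (edgeR adjusted p = 1.00). The counts depended on the mdx aldosterone-medium library numbered 2: without it Eno2 at -0.38, Pfkfb3 at -0.38, Pfkl at -0.16 and Gbe1 at -0.32 were called lower in the mean of both lines, where 5.59% of all genes were called. The proliferation markers also differed between media in C57, at 307, 330 and 301 CPM with aldosterone medium, against 245, 246 and 256 CPM with vehicle medium. The mdx library numbered 2 with aldosterone medium also had the highest summed myotube markers of the fibroblast libraries, 171 CPM, and the part of these markers was not tested.

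**Figure D4:**
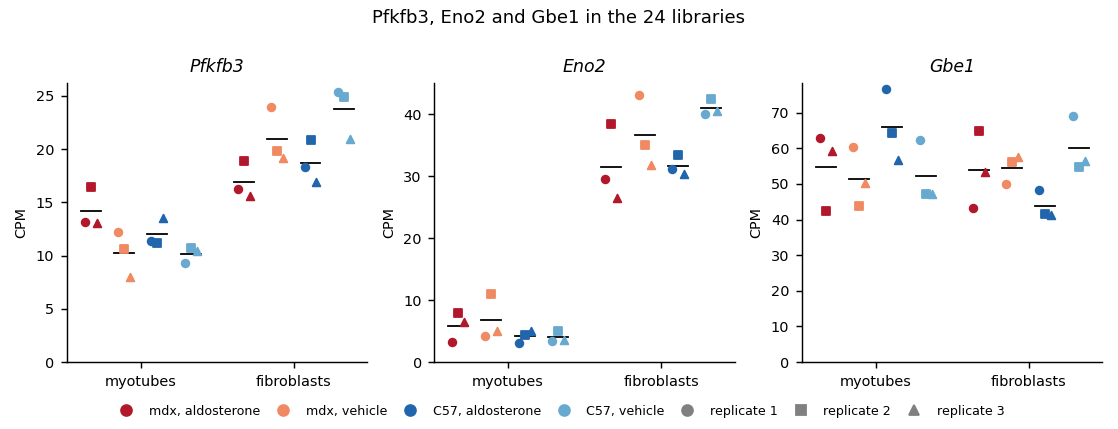
CPM of Pfkfb3, Eno2 and Gbe1 in each of the 24 libraries, with aldosterone or aldosterone medium left of vehicle. Pfkfb3 runs at 15.6 to 20.9 CPM in fibroblasts with aldosterone medium and 19.2 to 25.3 CPM with vehicle medium, and at 11.2 to 16.4 CPM in aldosterone-treated and 8.02 to 12.2 CPM in vehicle-treated myotubes.

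Between lines of fibroblasts several glycolytic enzymes had slightly higher values in mdx that did not pass the test. No member was called with aldosterone medium (edgeR, 1.23% of all genes called) or with vehicle medium (1.1%), with 9 and 6 members at an unadjusted p below 0.05, where 13.8% and 12% of all genes had such a p. DESeq2 called Pkm, Ldha and Eno1 with aldosterone medium and Eno1, Ldha and Pdk1 with vehicle medium, all higher in mdx, where it called 3.27% and 2.88% of all genes, and limma-voom called 0 in both media. Ldha had 900, 1037 and 982 CPM in mdx fibroblasts with aldosterone medium, against 821, 803 and 841 CPM in C57 fibroblasts with aldosterone medium, and 855, 1001 and 942 CPM in mdx with vehicle medium, against 808, 813 and 772 CPM in C57 with vehicle medium. The lines did not overlap in either medium, and the log2 changes were 0.23 ± 0.06 (edgeR adjusted p = 0.0995) and 0.23 ± 0.06 (0.114). Pkm had 2272, 2717 and 2364 CPM in mdx with aldosterone medium, against 2091, 1884 and 2012 CPM in C57, a log2 change of 0.29 ± 0.08 (edgeR adjusted p = 0.0881). Eno1 had 1517, 1660 and 1597 CPM in mdx with aldosterone medium, against 1390, 1363 and 1379 CPM in C57, and 1407, 1630 and 1511 CPM in mdx with vehicle medium, against 1278, 1336 and 1311 CPM in C57. The lines did not overlap for Pkm with aldosterone medium or for Eno1 in either medium. The Eno1 log2 changes were 0.20 ± 0.06 (edgeR adjusted p = 0.138) and 0.22 ± 0.06 (0.114). In each medium the mdx library numbered 2 had the highest Ldha and Eno1 of the mdx libraries. These libraries were also deeper, at 40756528 reads with aldosterone medium and 42698139 with vehicle medium, against 16964960 to 24469802 in the other mdx fibroblasts. The part of depth was not tested. Pdk1 had 67.8, 76.2 and 65.7 CPM in mdx with vehicle medium, against 58.4, 60.9 and 54.3 CPM in C57, a log2 change of 0.28 ± 0.08 (edgeR adjusted p = 0.10). It was called when the replicate number was kept as a block (edgeR with block, adjusted p = 0.0185). Same-numbered mdx and C57 libraries did not deviate together here, with correlations of -0.182 to -0.0561, so the numbers did not pair them.

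With aldosterone medium 11 members were higher in mdx without overlap, where 10.7% of all genes were: Pkm, Aldoa, Eno1, Ldha, Pgk1, Tpi1, Pgam1, Pfkl, Hk1, Pgm1 and Pdk1. Pygb and Slc2a3 were lower without overlap, where 9.1% of all genes were. With vehicle medium Aldoa, Eno1, Ldha, Tpi1, Pfkl and Pdk1 were higher, where 7.34% of all genes were, and Slc2a3 lower, where 9.51% were. The members' median log2 change was 0.07 with aldosterone medium and 0.01 with vehicle medium, against 0.01 and 0.00 over all genes. Without the mdx aldosterone-medium library numbered 2 the median with aldosterone medium was -0.02, and 16 of 36 members had a positive change in place of 24. Proliferation markers, 6 in all, moved with the line: they summed to 385, 374 and 414 CPM in mdx with aldosterone medium, against 307, 330 and 301 CPM in C57, and to 291, 414 and 341 CPM in mdx with vehicle medium, against 245, 246 and 256 CPM in C57, and their part in the values was not tested.

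**Figure D5:**
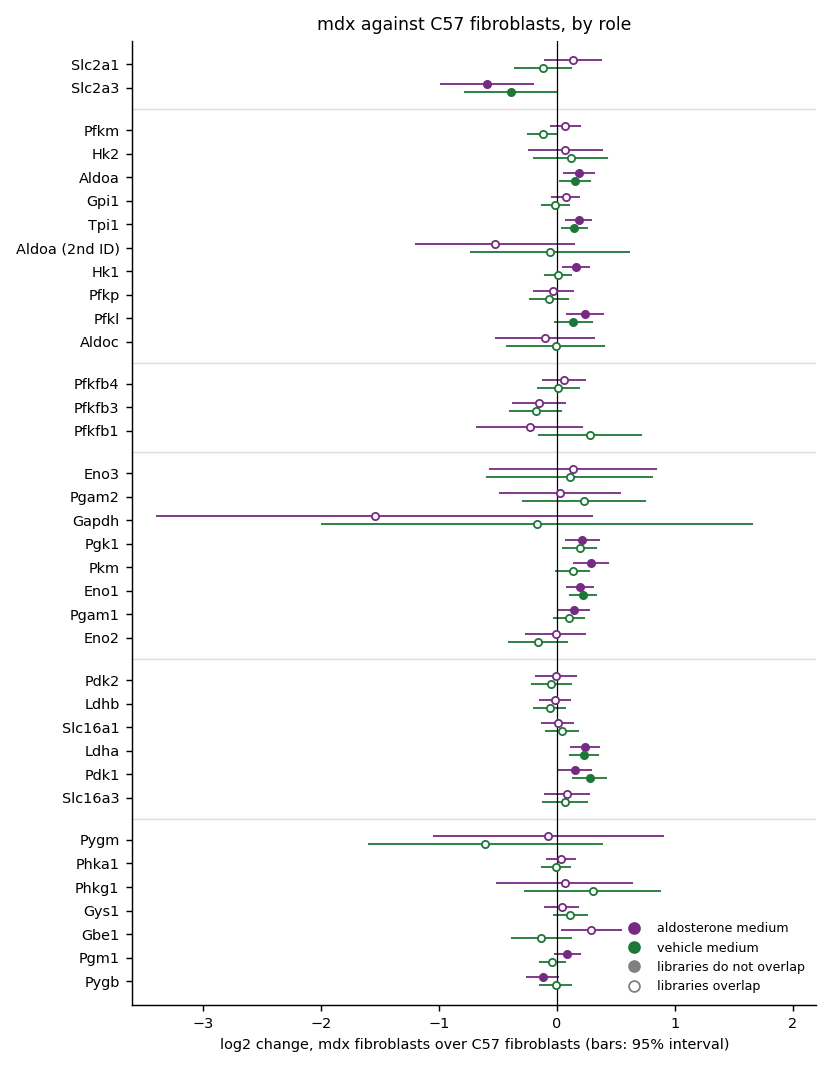
Log2 change of mdx over C57 fibroblasts for each tested member, with aldosterone medium in purple and vehicle medium in green; bars are 95% intervals and filled points mark members whose libraries do not overlap. Pkm, Ldha, Eno1 and Pdk1 lie at 0.20 to 0.29 in the medium for which they are named above, and none of the 36 passed an adjusted p below 0.05 in edgeR's test without the block.

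Neighbouring pathways were followed in 7 further lists, beside 36.2% of all genes called higher and 34.7% lower between cell types in mdx, and 37.5% higher and 37.2% lower in C57. Between cell types the genes of pyruvate entry into the mitochondrion were higher in myotubes, 9 of 12 in both lines and 0 lower, with Pdhb at 2.08, Pdhx at 1.75 and Dld at 1.40 in C57, all subunits or parts of the pyruvate dehydrogenase complex. The pentose phosphate genes were mostly lower, 4 of 7 with 1 higher in both lines, with G6pdx, the entry enzyme, at -2.42, Tkt, transketolase, at -2.32 and Pgd at -2.03 in C57. Of 16 hypoxia-responsive genes 10 were lower and 3 higher in both lines, with Car9, a carbonic anhydrase, at -5.20 and Egln3, an oxygen-sensing prolyl hydroxylase, at 3.90 in C57. Of 20 other glycogen genes 13 were higher and 5 lower in both lines, among them Epm2a, which encodes laforin, at 4.02, Stbd1, a glycogen-binding protein, at 3.50 and Ugp2, which makes UDP-glucose, at 1.86 in C57. Of 22 regulators, 14 in mdx and 13 in C57 were higher and 4 and 5 lower, with Mef2c, a muscle transcription factor, at 6.66, the nuclear receptor gene Esrrg at 7.34 and Hif1a at -1.62 in C57. Of 14 further transport genes, 5 in mdx and 4 in C57 were higher and 8 lower in both. The 8 other glycolytic genes split into 5 higher and 3 lower in both lines.

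With aldosterone on myotubes, block fit and mean of both lines, 5 of 22 regulators rose and 1 fell, where 4.4% of all genes were called higher and 4.56% lower, led by Myc at 0.32 (edgeR with block, adjusted p = 0.000114), Prkaa1 at 0.25 and Prkaa2 at 0.20, the last pair encoding catalytic subunits of the energy sensor AMPK, while Mef2c fell by 0.20. Of 16 hypoxia-responsive genes 4 rose and 0 fell, with Egln3 at 0.23, Ero1a at 0.21 and P4ha2 at 0.18. Among 20 other glycogen genes Stbd1 rose by 0.26 and 3 fell, with Pygl, the liver phosphorylase, at -0.57 and Phkb at -0.14. Pdk3 fell by 0.16 as the only call among the 12 pyruvate entry genes, and no call was made in the other lists. In fibroblasts Epas1, which encodes HIF-2α, was lower in mdx with vehicle medium, at -1.11 (edgeR adjusted p = 0.00359), and Stbd1 with aldosterone medium, at -0.64 (0.0445).

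Gapdh, the glyceraldehyde phosphate dehydrogenase often used as a reference gene, had the widest spread within each of the 8 groups among members averaging 5 CPM or more. It had 285, 18.8 and 346 CPM in aldosterone-treated mdx myotubes, against 336, 105 and 333 CPM with vehicle, and in C57 158, 467 and 302 CPM with aldosterone, against 444, 353 and 279 CPM with vehicle. In fibroblasts it ran at 14.3 to 52.3 CPM in mdx and 12.8 to 107 CPM in C57. Highest and lowest replicate differed 18.4-fold in aldosterone-treated mdx myotubes, where the next most variable member, Eno2, differed 2.42-fold. The gap to the next member was smaller elsewhere, with Gapdh at 1.59-fold and Pfkfb4 at 1.38-fold in C57 vehicle myotubes, and Gapdh at 3.21-fold and Eno2 at 2.64-fold in mdx vehicle myotubes. In C57 vehicle myotubes Gapdh reached 86.7 CPM per kb, against 212 for Pgk1 and 168 for Tpi1, on deposited lengths of 4133, 2244 and 2753 bases. How reads mapping to several places were counted was not stated in the available descriptions, and the mouse genome holds many Gapdh pseudogenes, so the called Gapdh contrast between cell types, 3.08 ± 0.74 in mdx and 3.39 ± 0.74 in C57, is reported as uncertain. The library kit does not mark strand, so reads of genes that overlap a member cannot be told apart from the member's where they share exons. Examples are Iffo1 for Gapdh, Csnk1d for Slc16a3, Pitrm1 for Pfkp and Ruvbl2 for Gys1. Over all libraries Iffo1 held 49399 counts, against 87970 on Gapdh, and its part in the Gapdh values was not tested. Phkg1 overlaps Chchd2 on its own strand, and its counts are uncertain for that reason.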

How the data were processed

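RNA was sequenced from 24 libraries (poly(A)-selected, with a kit that does not mark strand, per the labels' protocols). The deposited counts are whole reads per gene on build mm39, made by the authors with featureCounts 1.5.0-p3, per the submitters' processing notes. Neither aligner nor annotation release nor the handling of multi-mapping reads is stated in the descriptions used here. The authors also deposited FPKM values, which equal count over gene length times a constant per library in rows of 100 counts or more, and these were not used for tests.

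CPM were computed over totals scaled by TMM in all 24 libraries together. Tests were fitted across all genes that passed edgeR's expression filter, separately for myotubes (15763 genes), fibroblasts (16671) and cell types in vehicle groups (17435), with edgeR 4.0.16 in R 4.3.3 (quasi-likelihood, Benjamini-Hochberg, threshold 0.05). DESeq2 1.42.0 and limma 3.58.1 (voom), other scaling factors, no filter, leaving out each library, fits on 2 groups and a replicate block were alternatives, and combinations of the block with another choice were chosen after seeing the data. The scripts were tested on simulated data. The labels number replicates 1 to 3 in every group. The correlation of same-numbered libraries' deviations was above 0.1 in all pairs of aldosterone and vehicle for mdx myotubes (0.482 to 0.673), C57 myotubes (0.359 to 0.704) and mdx fibroblasts (0.106 to 0.299), and not for C57 fibroblasts (-0.0176 to 0.121). For myotubes the block is therefore reported beside the unpaired fit. Estimates of the medium effect in fibroblasts, mdx included, are unpaired, and the block is given there only as counts of called members. Changes are log2 with their SE.

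The members and all lists were chosen with earlier results of these data known. Values per library are given for up to 8 called members per comparison with the smallest adjusted p, for isoenzyme families between cell types and, where none was called, for the 3 smallest p-values. Pathway genes are limited to 3 called genes per list. Dmd, Gapdh's spread, Tpi1, Gpi1, Pgm1, Phkg1 and members named as not overlapping were named after their values were seen. Promoters are from the RefSeq table on GRCm38.p6 and were matched by symbol for 34 of 37 listed genes. Coordinates of genes are those of the count table.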

Additional observations from a re-analysis of the deposited data

How the results depend on the processing

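No called member changed sign under the alternatives run. The members' median log2 change of mdx over C57 fibroblasts with aldosterone medium, 0.07, was -0.02 without the mdx aldosterone-medium library numbered 2. The counts of called members between cell types stayed at 29 to 31 in mdx and 30 to 32 in C57. With the replicate block, which pairs same-numbered libraries, the aldosterone counts in myotubes were 2 in mdx, 2 in C57 and 9 in the mean of both lines, each against 0 without it. Within the paired fits, mdx had 0 with upper-quartile factors, 1 with DESeq2, 1 with limma-voom and 0 to 1 when a culture was left out. C57 had 4 with no filter and 1 to 4 when a culture was left out, and the mean had 3 to 10. In fibroblasts the medium effect of the mean of both lines had 1 member with DESeq2, 1 with no filter and 0 to 4 when a library was left out. With the block it had 3 with DESeq2, 4 with no filter and 0 to 6 when a culture was left out. Paired C57 fibroblasts had 1 with DESeq2 and 5 with no filter, paired mdx fibroblasts 2 with no filter and 0 to 2 when a culture was left out, and the paired difference between lines 2 with no filter. The fibroblast lines differed in 3 members with DESeq2 in either medium, in 2 (aldosterone medium) and 1 (vehicle medium) with no filter, and in 1 with the block (vehicle medium). The difference of the cell-type contrast between lines had 0 to 1 when a library was left out, the 1 without mdx vehicle myotube replicate 3. Shares of raw counts, not scaled by length, changed the myotube minus fibroblast difference in mdx and C57 to 72.7 and 74.3 percentage points for Pfkm, 70.1 and 80.4 for Pgam2, 64.8 and 68.4 for Eno3, -6.79 and -6.42 for Ldha and 43.0 and 40.9 for Pdk2. Without the member with the highest count the difference in the members' share of all counts was 0.586 percentage points in C57. The cause of these moves was not tested. The block changed no other call of a comparison by more than 1.5 times. Slc2a4 in fibroblasts is limited by depth, with 0 to 12 reads per library.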

Other observations

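Gyg, which encodes glycogenin, the protein primer of glycogen, is the table's name for a listed gene that did not match by symbol. It had 291, 259 and 309 CPM in mdx vehicle myotubes, against 50.4, 50.03 and 50.8 CPM in mdx vehicle-medium fibroblasts. In C57 it had 337, 304 and 301 CPM in vehicle myotubes, against 47.1, 47.4 and 43.7 CPM in vehicle-medium fibroblasts. The cell types were fully separate, with log2 changes of 2.53 in mdx and 2.81 in C57 (edgeR adjusted p = 1.11e-10 and 4.55e-11).

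Several members have near-identical copies in the table. Counts on Eno1b came to 1.49% of those on Eno1, on Tpi-rs11 to 1.28% of Tpi1, on Pgam1-ps2 to 1.06% of Pgam1, on Pgk1-rs7 to 0.307% of Pgk1 and on Ldha-ps2 to 0.278% of Ldha. Over 3 Gapdh-like rows 113 reads were counted in all libraries, against 87970 on Gapdh.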
